A study of Mus musculus with 8 samples.

Results

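The 10 genes described here encode proteins of epithelial cell contacts, namely the claudins Cldn1, Cldn2, Cldn3, Cldn4, Cldn7, Cldn10 and Cldn18, occludin (Ocln), E-cadherin (Cdh1) and cadherin 26 (Cdh26). Their probes were found by RefSeq accession on a mouse gene expression array, and 10 of the 10 genes were measured, that is, well above background in both mice of 1 group or more, as were 28992 of the 45616 genes and transcripts on the array. Lung RNA was measured in 8 female BALB/c mice, purchased young and fed for 70 days, with 2 mice per group and 1 array per mouse. NT mice received standard feed and no ovalbumin (OVA). Ctrl-F mice (standard feed), Cap-F mice (feed with control particles of carbonate apatite) and ODNcap-F mice (feed with such particles holding a CpG oligodeoxynucleotide, a short DNA that activates Toll-like receptor 9) were immunized with OVA and alum by intraperitoneal injection and inhaled an OVA aerosol daily until the day before lung collection. The comparison of Ctrl-F with NT addresses what OVA exposure did to these transcripts, and those among the OVA-exposed groups address the feeds. Cap-F and ODNcap-F differ from NT in feed as well as in OVA exposure, and these cannot be told apart in their comparisons with NT.

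Claudins are membrane proteins that meet between neighboring epithelial cells and form the sealing strands of the tight junction. Some of them tighten the barrier and others form pores for ions or water, so that the set of claudins in a cell fixes which solutes pass between cells. Occludin lies in the same strands, whereas E-cadherin joins cells at the adherens junction beneath them and holds an epithelial sheet together. In the lung, Cldn18 is the best known claudin of the alveolar epithelium, and Cldn3, Cldn4 and Cldn7 are found in airway and alveolar epithelial cells.

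The software marked 64.8% and 65.0% of the 56605 probes as well above background in the NT mice and 61.3% to 62.8% in the OVA-exposed mice. Values are log2 intensities after quantile normalization over the 8 arrays, and a probe had to reach 3.61 to 4.18, depending on the array, to count as well above background. A gene was called changed at a Benjamini-Hochberg adjusted p under 0.05 in a limma fit of all 8 arrays. On the slide, 1 row held the arrays of NT and Ctrl-F mice and the other row those of Cap-F and ODNcap-F mice, so that row and group cannot be told apart in the comparisons that cross rows. Ctrl-F against NT and ODNcap-F against Cap-F lie within a row. No source says that the 2 mice of a group were housed apart, so p-values measure the spread between these mice. With 2 mice against 2, an exact two-sided permutation test of a single gene cannot go below 0.333.

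The junction genes moved in both directions after OVA exposure. Cldn2 and Cldn4 rose in each of the 3 OVA-exposed groups, and Cldn3, Cldn7, Cldn18 and Ocln fell in each of them. Cldn10 fell in Ctrl-F, and in Cap-F Cldn1 rose and Cdh1 fell. Cdh26 did not pass the test in any comparison. The lungs were measured as whole tissue, in which fewer cells of a type and less RNA per cell cannot be told apart.

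**Figure D1:**
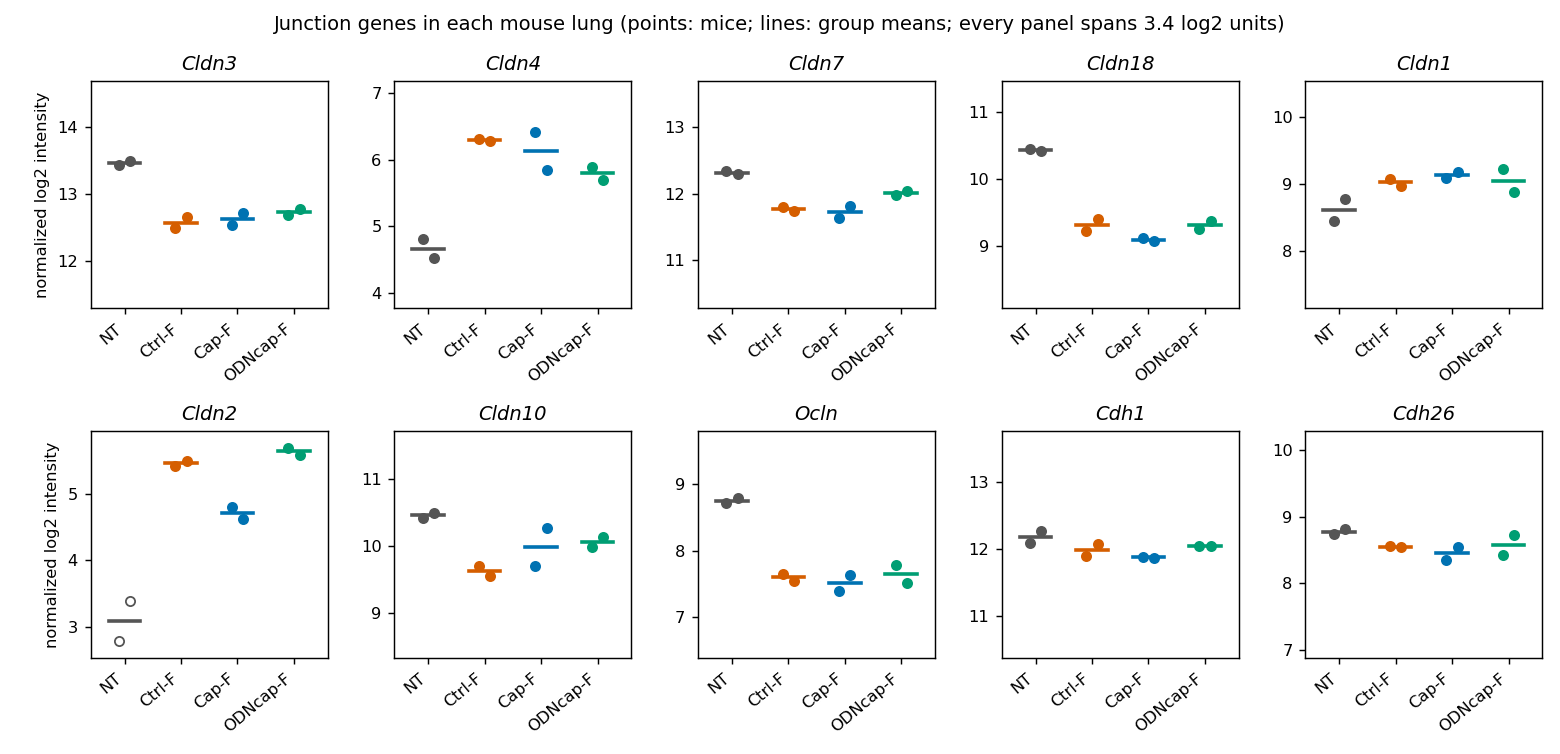
Normalized log2 intensity of each junction gene (y axis) in each of the 8 mice by group (x axis), with points for mice, lines for group means, and open points for values not well above background. Cldn3, Cldn18 and Ocln sat about 1 log2 unit lower in the OVA-exposed mice than in NT, whereas Cldn2 and Cldn4 sat higher.

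Cldn2 forms a pore for sodium ions and water and is known as a claudin of leaky epithelia. Its log2 intensity was 2.79 and 3.39 in the NT mice, 5.41 and 5.49 in Ctrl-F, 4.79 and 4.62 in Cap-F, and 5.69 and 5.58 in ODNcap-F. Neither NT value was well above background, and the 6 values of the OVA-exposed mice were. Against the lowest signal counted as above background, the mean stood 3.55-fold higher in Ctrl-F, 2.11-fold in Cap-F and 4.03-fold in ODNcap-F. Adjusted p-values from limma were 0.00021, 0.000978 and 0.000189 in that order. They rest on the measured NT values, which were not well above background. The probe was kept only through the OVA-exposed groups, so these p-values are no independent support for the rise. With normexp background correction the log2 differences shrank to 0.61, 0.35 and 0.65, and each still passed. A second probe of the same Cldn2 accession was not well above background on any array, with values from 1.87 to 3.23, so the rise was seen with 1 of 2 probes.

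Cldn4, a claudin that tightens the barrier and is induced in injured alveolar epithelium, was the other claudin that rose in each OVA-exposed group. Its log2 intensity was 4.81 and 4.53 in NT mice, 6.31 and 6.27 in Ctrl-F, 6.42 and 5.84 in Cap-F, and 5.88 and 5.70 in ODNcap-F. Both NT mice lay below the 6 others, and the 2 Cap-F mice differed by 0.57. The increase over NT was 3.08-fold in Ctrl-F (log2 1.62 ± 0.20, SE; adjusted p = 0.00095), 2.75-fold in Cap-F (adjusted p = 0.00165) and 2.18-fold in ODNcap-F (adjusted p = 0.00435). With normexp, which raises the floor under dim probes, the log2 differences were 0.71, 0.59 and 0.46.

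Cldn1, a sealing claudin that the epidermal barrier depends on, was 8.46 and 8.78 in NT mice, 9.08 and 8.98 in Ctrl-F, 9.09 and 9.19 in Cap-F, and 9.23 and 8.88 in ODNcap-F. All OVA-exposed mice lay above both NT mice, and the NT mice themselves differed by 0.32. The log2 difference was 0.52 ± 0.16 (SE) in Cap-F, which passed (adjusted p = 0.0304), and 0.41 in Ctrl-F (adjusted p = 0.0602) and 0.43 in ODNcap-F (adjusted p = 0.0529), which did not. The call in Cap-F was lost without NT replicate 1 (0.36), without Cap-F replicate 1 (0.57) and without Cap-F replicate 2 (0.48). That call was also lost in limma fits without the filter on dim probes (adjusted p = 0.0607) and with the replicate number as a block (0.0505). Without NT replicate 2 or without either ODNcap-F replicate Cldn1 passed in Ctrl-F, with 0.57 and 0.41, and without NT replicate 2 or ODNcap-F replicate 2 it passed in ODNcap-F, with 0.60 and 0.61.

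Cldn3, a sealing claudin that lies next to Cldn4 in the genome, moved the other way. Its log2 intensity was 13.43 and 13.49 in NT mice, 12.49 and 12.65 in Ctrl-F, 12.54 and 12.72 in Cap-F, and 12.69 and 12.77 in ODNcap-F. No OVA-exposed mouse reached the NT values, and the 2 mice of a group differed by at most 0.17 in every group. Cldn3 fell by 0.89 ± 0.095 (SE) on the log2 scale in Ctrl-F, or 1.85-fold (adjusted p = 0.000535), by 0.83 in Cap-F (adjusted p = 0.000808) and by 0.73 in ODNcap-F (adjusted p = 0.00124). Over the 8 arrays Cldn3 and Cldn4 had a Pearson correlation of -0.980, a description of points that share a slide and a group structure.

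The stretches upstream of the starts of Cldn2, Cldn3 and Cldn4 are shown because Cldn2 and Cldn4 rose in each OVA-exposed group and because Cldn3 and Cldn4 are neighbors that moved in opposite directions. They are the 250 bases before the start in RefSeq (GRCm38.p6), read 5′ to 3′ in the direction of the gene, at chrX:139800558-139800807 (plus strand) for Cldn2, chr5:134985964-134986213 (plus strand) for Cldn3 and chr5:134946935-134947184 (minus strand) for Cldn4. Capitals mark matches, on either strand, to the E-box CACCTG of the Snail and Zeb repressors or to the TATA box TATAAA.
Cldn2: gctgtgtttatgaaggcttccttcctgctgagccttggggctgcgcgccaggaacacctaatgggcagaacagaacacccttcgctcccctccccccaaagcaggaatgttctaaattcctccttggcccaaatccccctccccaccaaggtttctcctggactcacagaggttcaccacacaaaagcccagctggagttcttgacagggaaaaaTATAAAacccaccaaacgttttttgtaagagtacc
Cldn3: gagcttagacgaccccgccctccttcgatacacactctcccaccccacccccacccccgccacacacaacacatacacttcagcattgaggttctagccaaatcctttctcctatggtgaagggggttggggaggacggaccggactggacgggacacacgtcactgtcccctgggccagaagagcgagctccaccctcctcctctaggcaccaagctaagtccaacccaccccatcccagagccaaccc
Cldn4: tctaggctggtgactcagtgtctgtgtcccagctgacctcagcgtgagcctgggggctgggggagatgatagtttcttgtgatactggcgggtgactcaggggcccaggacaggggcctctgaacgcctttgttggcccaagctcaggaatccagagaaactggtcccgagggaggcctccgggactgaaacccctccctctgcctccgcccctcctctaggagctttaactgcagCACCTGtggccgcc
The Cldn2 stretch held 1 TATAAA, whose first base lies 35 bases before the start, and the Cldn4 stretch held 1 CACCTG 14 bases before the start. The Cldn3 stretch held no match. Among 32851 promoter stretches of the same length, 17.2% held the E-box, 12.4% held TATAAA and 5.85% held TTCNNNNGAA, the palindrome bound by STAT6 downstream of IL-4 and IL-13. Of the 10 genes 9 had an entry, with 13 starts in all, of which 3 held the E-box, 1 held TATAAA and 1 held TTCNNNNGAA, the last in Ocln, where it overlaps an E-box. A match is a description of letters and no site was measured. In RefSeq Cldn3 overlaps Wbscr25, Cldn10 overlaps Gm52105, Gm41248 and Gm32382, and Ocln overlaps LOC115488221, and whether those transcripts reach the probes was not tested.

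Cldn7, a claudin of airway epithelium that also lies along the lateral membrane, fell less than Cldn3. Its log2 intensity was 12.33 and 12.29 in NT mice, 11.80 and 11.74 in Ctrl-F, 11.63 and 11.81 in Cap-F, and 11.98 and 12.04 in ODNcap-F. The ODNcap-F mice lay between the NT mice and the 4 other OVA-exposed mice. Cldn7 fell by 0.54 ± 0.084 (SE) in Ctrl-F (adjusted p = 0.00228), by 0.59 in Cap-F (adjusted p = 0.00188) and by 0.31 in ODNcap-F (adjusted p = 0.0217). The call in ODNcap-F was lost when either NT replicate was left out (adjusted p = 0.0911 and 0.0678), when either ODNcap-F replicate was left out (0.086 and 0.0504), with scaling to the 75th percentile (0.0503) and in the local-pooled-error test (0.0776).

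Cldn18, whose lung form belongs to the alveolar epithelial barrier, and Ocln, whose product regulates the tight junction strand, fell more than 2-fold in each OVA-exposed group. Which form of Cldn18 the probe reads was not tested. Cldn18 was 10.45 and 10.42 in NT mice, 9.22 and 9.40 in Ctrl-F, 9.11 and 9.07 in Cap-F, and 9.26 and 9.36 in ODNcap-F. Ocln was 8.71 and 8.79 in NT mice, 7.65 and 7.55 in Ctrl-F, 7.40 and 7.63 in Cap-F, and 7.79 and 7.51 in ODNcap-F. For both genes the gap between NT and the other groups exceeded the spread within any group. Cldn18 fell by 1.13 ± 0.085 (SE) in Ctrl-F (2.18-fold, adjusted p = 0.00016), by 1.34 in Cap-F (adjusted p = 0.000107) and by 1.12 in ODNcap-F (adjusted p = 0.000185). Ocln fell by 1.15 ± 0.13 (SE) in Ctrl-F (2.22-fold, adjusted p = 0.000612), by 1.23 in Cap-F (adjusted p = 0.000553) and by 1.10 in ODNcap-F (adjusted p = 0.000788). With normexp the log2 differences in Ctrl-F were -1.01 for Cldn18 and -0.98 for Ocln. Over all alternative settings the smallest falls in ODNcap-F were -0.99 for Cldn18 and -0.93 for Ocln. The 2-fold size was thus not kept in every setting.

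Cldn10, which forms ion-selective pores, differed by 0.58 between the 2 Cap-F mice. It was 10.42 and 10.50 in NT mice, 9.70 and 9.55 in Ctrl-F, 9.70 and 10.28 in Cap-F, and 9.98 and 10.14 in ODNcap-F. All 6 OVA-exposed mice lay below both NT mice, but Cap-F mouse 2 lay close to NT and Cap-F mouse 1 at the level of Ctrl-F. Cldn10 fell by 0.83 ± 0.19 (SE) in Ctrl-F (adjusted p = 0.0107). The log2 difference was -0.47 in Cap-F (adjusted p = 0.0784) and -0.40 in ODNcap-F (adjusted p = 0.118). In Cap-F it was -0.76 without Cap-F replicate 2 (adjusted p = 0.00669) and -0.18 without Cap-F replicate 1. The call in Ctrl-F was lost without NT replicate 2 (adjusted p = 0.0539) and without Ctrl-F replicate 2 (0.0545), and in ODNcap-F Cldn10 passed without either Cap-F replicate (0.0206). The summed intensity of 4 ciliated cell markers followed a similar order over the mice, with 9037 and 9173 in NT mice, 6551 and 5444 in Ctrl-F, 5564 and 9460 in Cap-F, and 7811 and 9962 in ODNcap-F, and its part in the Cldn10 values was not tested.

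The 2 cadherins moved least. Cdh1 was 12.09 and 12.26 in NT mice, 11.89 and 12.07 in Ctrl-F, 11.87 and 11.87 in Cap-F, and 12.04 and 12.04 in ODNcap-F. The 6 OVA-exposed mice lay below both NT mice, with Ctrl-F mouse 2 and both ODNcap-F mice only just below NT mouse 1. The log2 difference was -0.19 ± 0.093 (SE) in Ctrl-F (adjusted p = 0.115), -0.30 in Cap-F, which passed (adjusted p = 0.0326), and -0.14 in ODNcap-F (adjusted p = 0.245). The Cap-F call was lost without NT replicate 2 (-0.22), without either Cap-F replicate (-0.31 and -0.30) and without either ODNcap-F replicate (-0.30). It was also lost with scaling to the 75th percentile (adjusted p = 0.0537) and in a limma fit of only the compared groups (adjusted p = 0.0535).

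Cdh26, a cadherin of airway epithelium known from allergic inflammation in humans, was 8.74 and 8.81 in NT mice, 8.56 and 8.54 in Ctrl-F, 8.36 and 8.55 in Cap-F, and 8.43 and 8.72 in ODNcap-F. The OVA-exposed mice lay slightly below NT, with a log2 difference of -0.22 ± 0.12 (SE) in Ctrl-F (adjusted p = 0.150), -0.32 in Cap-F (adjusted p = 0.0611) and -0.20 in ODNcap-F (adjusted p = 0.198). In Cap-F it passed without either ODNcap-F replicate (adjusted p = 0.0321). The values come from the probe of accession NM_198656, and the probe of NM_001291189 was not well above background on any array.

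**Figure D2:**
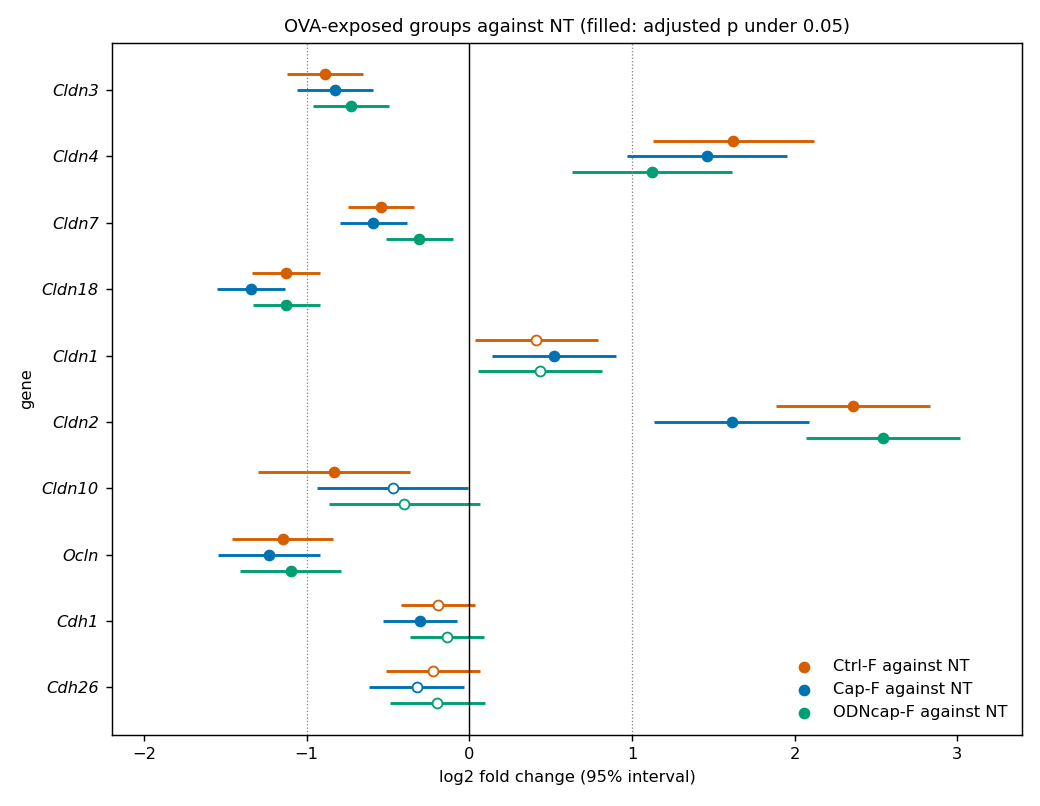
Log2 fold change against NT (x axis) of each junction gene (y axis) in the 3 OVA-exposed groups, with 95% intervals from the limma fit, filled points where the adjusted p was under 0.05, and dotted lines at a 2-fold change. Cldn2 and Cldn4 lie to the right of the 2-fold line and Cldn18 and Ocln to the left of it in all 3 comparisons, while the cadherins lie near 0.

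In counts, 7 of the 10 genes passed in Ctrl-F against NT, 2 higher and 5 lower, where 61.9% of all 28992 genes and transcripts passed, 26.2% higher and 35.7% lower. In Cap-F 8 passed, 3 higher and 5 lower, against 56.6% of all (24.1% higher and 32.4% lower), and in ODNcap-F 6 passed, 2 higher and 4 lower, against 60.0% of all (25.1% higher and 34.9% lower). The counts in Ctrl-F and ODNcap-F lie near the shares of all genes. Each count includes Cldn2, which was kept only through the OVA-exposed groups. Cldn2, Cldn4, Cldn18 and Ocln also differed by more than 2-fold in each comparison, which 22.8%, 19.6% and 20.7% of all genes did. For Cldn2 this size rests on NT values that were not well above background. With normexp in Ctrl-F only Cldn18 (-1.01) stayed past 2-fold, beside 0.61 for Cldn2, 0.71 for Cldn4 and -0.98 for Ocln. The shares of all genes are those of the main fit. The median absolute log2 difference from NT of the 10 genes was 0.86 for Ctrl-F, 0.71 for Cap-F and 0.58 for ODNcap-F, beside 0.48, 0.42 and 0.46 over all genes. In each comparison the 2 groups did not overlap in any of the 10 genes, with 3 genes higher and 7 lower than NT. Of all genes 35.5%, 34.3% and 34.2% were higher without overlap and 48.5%, 47.8% and 48.1% lower. The median of the signed differences over all genes was -0.12, -0.11 and -0.12. The 3 comparisons share the NT mice.

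Among the OVA-exposed groups no junction gene passed. In ODNcap-F against Ctrl-F 0 of the 10 genes passed, as did 0.00% of all genes, and Cldn4 and Cldn7 had an unadjusted p under 0.05, a share of 6.78% over all genes. Cldn4 was lower in both ODNcap-F mice than in both Ctrl-F mice, with a log2 difference of -0.50 and a 95% interval from -0.99 to -0.0066 (adjusted p = 0.740), or -0.25 with normexp. Cldn7 was higher in both ODNcap-F mice, by 0.24 with an interval from 0.031 to 0.44 (adjusted p = 0.740). Cldn10 was also higher in both, by 0.43 with an interval from -0.033 to 0.90 (adjusted p = 0.75). The other 7 genes differed by 0.0024 to 0.18, and their intervals lay between -0.36 and 0.66. In all, 4 genes were higher and 1 lower without overlap, beside 17.0% and 18.6% of all genes.

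In ODNcap-F against Cap-F 0 of the 10 genes passed, beside 0.00345% of all genes, and 3 had an unadjusted p under 0.05, beside 13.4% of all. Cldn2 was higher in both ODNcap-F mice, by 0.93 with an interval from 0.46 to 1.41 (adjusted p = 0.228), and with normexp by 0.30. Cldn7 was higher by 0.28, with an interval from 0.077 to 0.49 (adjusted p = 0.295), and Cldn18 by 0.22, with an interval from 0.0092 to 0.43 (adjusted p = 0.373). The other 7 genes had differences from -0.34 to 0.17 and intervals between -0.83 and 0.54. Without overlap, 4 genes were higher and 0 lower, beside 21.0% and 24.7% of all genes.

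In Cap-F against Ctrl-F, which sets the particles without the oligodeoxynucleotide against standard feed, 0 of the 10 genes passed, beside 0.00345% of all genes. Cldn2 was lower in both Cap-F mice, by a log2 difference of -0.75 with an interval from -1.22 to -0.27 (adjusted p = 0.190), or -0.26 with normexp, and Cldn18 likewise, by -0.22 with an interval from -0.42 to -0.0068 (adjusted p = 0.297). These 2 had an unadjusted p under 0.05, beside 16.6% of all genes. The other 8 genes had differences from -0.16 to 0.36 and intervals between -0.66 and 0.83. The half-width of the intervals was 0.21 to 0.49 in each of the 3 comparisons. Without overlap, 1 gene was higher and 3 were lower, beside 25.9% and 25.8% of all genes. Cldn2 was the lowest of the OVA-exposed groups in Cap-F in both of its comparisons, which share the Cap-F mice.

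**Figure D3:**
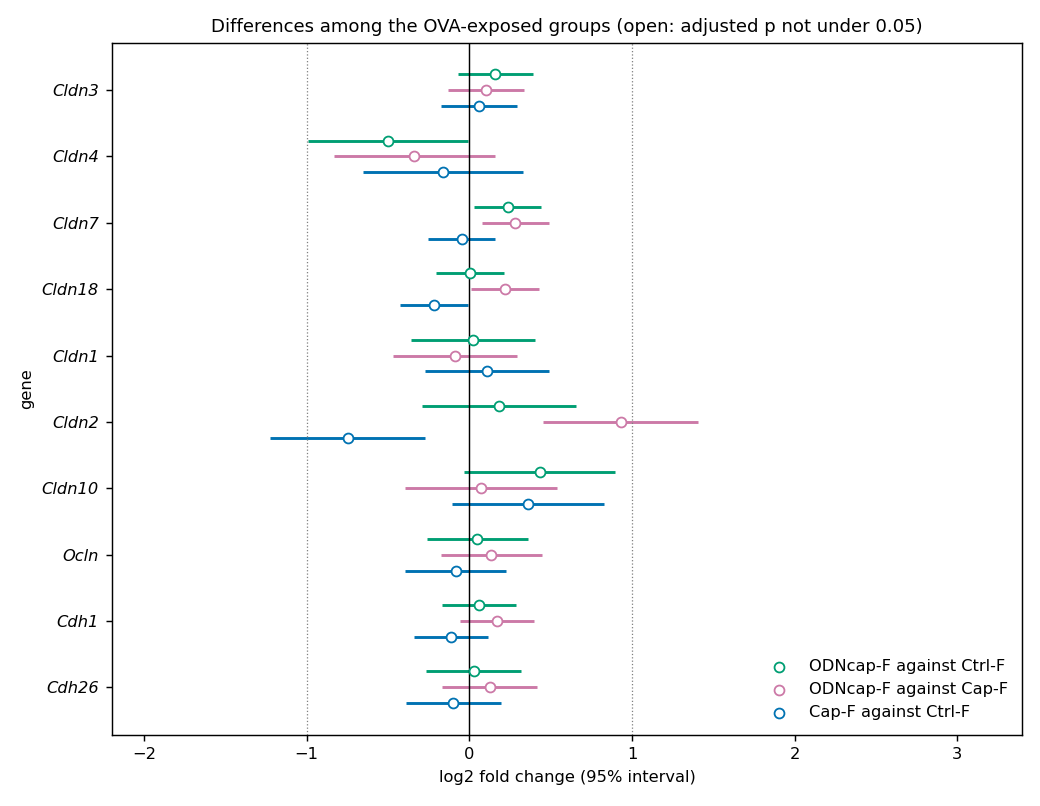
Log2 fold changes among the OVA-exposed groups (x axis, on the scale of the comparisons with NT) for each junction gene (y axis), with 95% intervals from the limma fit. All points are open because no adjusted p was under 0.05, and the points farthest from 0 are those of Cldn2 against Cap-F (0.93) and of Cap-F against Ctrl-F (-0.75).

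The wider junction machinery was read from 6 lists with 98 genes, of which 82 were tested. These genes were listed with earlier results of these data known, so the counts are descriptions and no independent test. In Ctrl-F against NT 51 of them fell and 9 rose, with a median log2 difference of -0.65, where 35.7% of all genes fell and 26.2% rose. The 9 rises include Cdhr1 and Cdh17, which were not well above background in NT and were kept only through the OVA-exposed groups. In Cap-F 51 fell and 9 rose, beside 32.4% and 24.1% of all genes, and in ODNcap-F 48 fell and 10 rose, beside 34.9% and 25.1%. None of the 82 passed in a comparison among the OVA-exposed groups.

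Of 9 tested claudins outside the 10 genes, 5 fell and 2 rose in Ctrl-F (median -1.04). Cldn8, a sealing claudin best known from the distal nephron, fell by 2.36 (adjusted p = 5.9e-05), Cldn23 by 1.49 and Cldn15, a cation pore of the intestine, by 1.42. Cldn22 rose by 3.62 (adjusted p = 0.0192) and Cldn9 by 0.81 (adjusted p = 0.0358). The Cldn22 values were 3.17 and 5.10 in NT mice, 7.66 and 7.85 in Ctrl-F, 6.41 and 8.60 in Cap-F, and 8.26 and 9.85 in ODNcap-F. Cldn22 was thus higher in every OVA-exposed mouse, while 1 of the 2 NT mice was not well above background and the 2 mice differed widely within NT, Cap-F and ODNcap-F. Without NT replicate 1 the Cldn22 difference was 2.65 and no longer passed (adjusted p = 0.0945), and it did not pass without either Ctrl-F replicate (0.066 and 0.0745). The Cldn9 call was lost when any of the 4 NT and Ctrl-F mice was left out (adjusted p = 0.0761 to 0.147) and without the filter on dim probes (0.0778). With normexp the differences were 1.78 for Cldn22, 0.33 for Cldn9 and -1.37 for Cldn8, and each still passed.

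Tight junction proteins other than claudins and occludin fell as a rule, with 22 lower and 1 higher of 26 in Ctrl-F (median -0.70). The largest falls were those of Pard6b (-1.55), a subunit of the polarity complex with Pard3, of Magi3 (-1.52), a scaffold, and of Mpdz (-1.47), another scaffold that binds claudins. Tjp3, the scaffold ZO-3, rose by 0.40 (adjusted p = 0.0209), a call that was lost without NT replicate 1 (0.105) and without either Ctrl-F replicate (0.0881 and 0.0599). In the adherens junction 6 of 12 fell and 1 rose in Ctrl-F (median -0.56). Jup, or plakoglobin, fell by 1.35, Nectin3, an adhesion protein, by 1.27 and Ctnna1, the α-catenin that links cadherins to actin, by 1.23, whereas Ctnnbip1, an inhibitor of β-catenin signaling, rose by 0.75 (adjusted p = 0.000524).

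Of 14 other cadherins 6 fell and 3 rose in Ctrl-F (median -0.31), shares of 42.9% and 21.4% that lie near the 35.7% and 26.2% of all genes. Cdh13, the anchored T-cadherin, fell by 2.23, Cdh16, a kidney cadherin, by 1.80 and Cdh5, the cadherin of endothelial cells, by 1.20. Cdhr1, known from photoreceptors, and Cdh17, a cadherin of the intestine, were not well above background in NT. Their Ctrl-F means stood 4.53-fold and 2.79-fold above the lowest signal counted as above background. Their adjusted p-values from limma (0.000205 and 0.000126) rest on the measured NT values. Both were kept only through the OVA-exposed groups, so these p-values are no independent support for a rise. Cdh6 rose by 1.51 (adjusted p = 0.0108). The 2 NT mice stood at 3.63, not well above background, and 4.77 for Cdh6, whose difference was 0.94 without NT replicate 1, 0.69 over the mean of its probes and 1.37 without Ctrl-F replicate 2, where the call was lost (adjusted p = 0.0552). With normexp the differences were 0.94 for Cdhr1, 0.58 for Cdh17 and 0.47 for Cdh6, and each passed, and over the mean of its probes Cdh16 fell by 0.83. Of 7 desmosome genes 3 fell, namely Pkp4 (-1.32), the plaque protein Dsp (-1.05) and Dsg2 (-0.57), and Pkp3 rose by 0.84 (median -0.50), where 42.9% lower again lies near the share of all genes. The Dsg2 call was lost without either NT replicate (adjusted p = 0.0513 and 0.114), without Ctrl-F replicate 2 (0.106) and without the filter on dim probes (0.0509).

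Among 14 regulators of epithelial junction genes 9 fell and 1 rose in Ctrl-F (median -0.71). Snai2 (-1.19) and Zeb1 (-1.08), which repress Cdh1 and other epithelial genes, and Grhl3 (-1.18), which activates them, all fell, Grhl3 by 0.38 with normexp. Only 1 of the 2 Ctrl-F mice had Grhl3 well above background, so its difference rests in part on a value that was not. Ehf, an epithelial transcription factor, rose by 0.39 (adjusted p = 0.0102), a call lost without NT replicate 2 (0.0581).

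**Figure D4:**
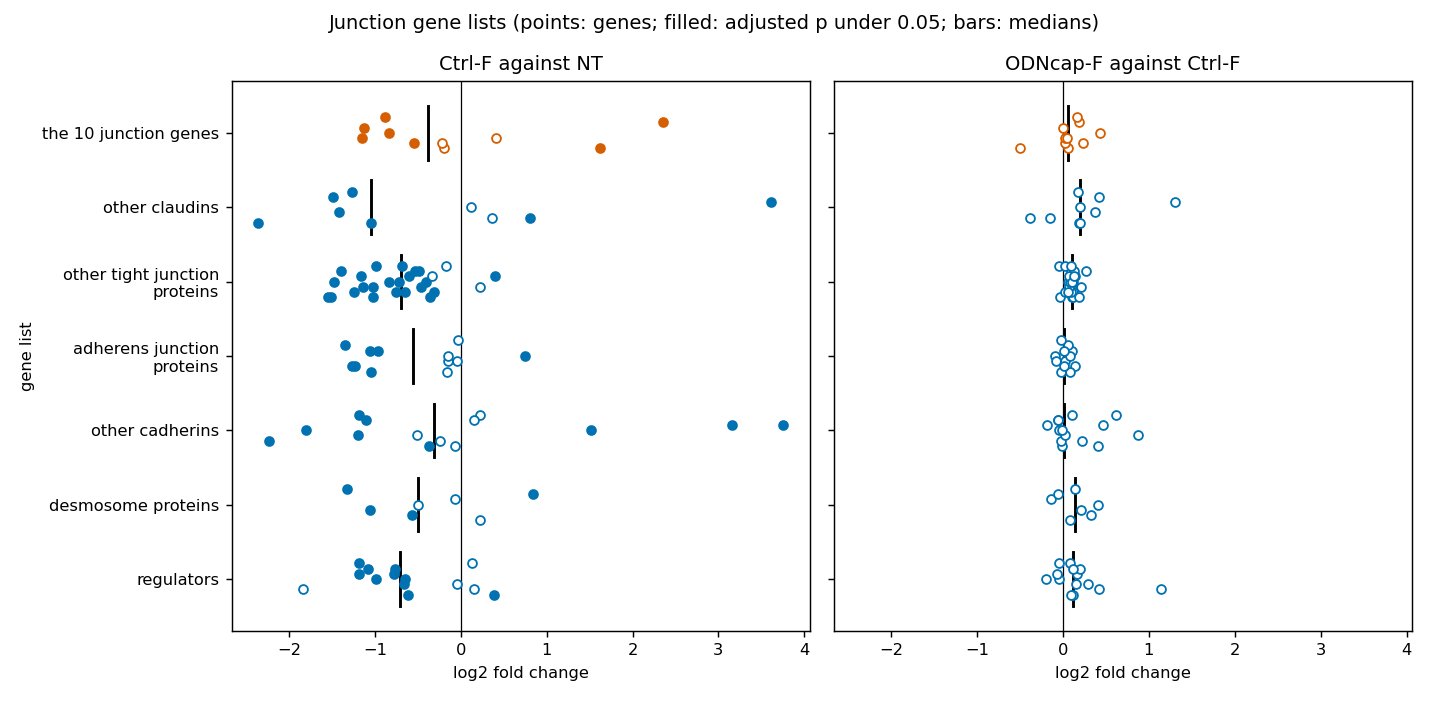
Log2 fold change (x axis) of the 10 junction genes and of the genes of 6 junction lists (y axis), each point 1 gene, in Ctrl-F against NT (left) and ODNcap-F against Ctrl-F (right), with filled points at an adjusted p under 0.05 and bars at medians. Most lists lie left of 0 on the left side, and on the right side no point is filled.

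Markers of the cell types in the lung moved with OVA exposure beside these genes. Their counts stand beside the 35.7%, 32.4% and 34.9% of all genes that fell in the same order of groups (Ctrl-F first, then Cap-F, then ODNcap-F). Of 5 alveolar type 1 markers 5 fell in each OVA-exposed group, and their summed intensity was 233769 to 242168 in NT and 106289 to 129150 in the OVA-exposed mice. Of 6 general epithelial markers 5 fell in Ctrl-F (by 0.32 to 0.87), and 3 fell in Cap-F and in ODNcap-F each. Epcam differed by 0.09 in Ctrl-F (adjusted p = 0.460). Of 6 alveolar type 2 markers 3 fell in Ctrl-F and 4 in each of the others. Of 4 ciliated cell markers 1 fell in Ctrl-F and none in the other 2 groups. Of 4 club cell markers 3 fell in each group. Sftpc, an alveolar type 2 marker, and Scgb1a1, a club cell marker, were among the 6 brightest probes of every array, where quantile normalization fixes the values, so no change is read from them.

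Endothelial markers, 2 of which (Cldn5 and Cdh5) are also in the junction lists, fell in 5 of 5, and their summed intensity was 67015 to 67025 in NT and 24804 to 30527 in the OVA-exposed mice. Mesothelial markers fell in 2 of 3. Leukocyte markers rose in 6 of 7 while Itgam fell, with a sum of 23355 to 24387 in NT and 43220 to 61168 in the others, and mucous cell markers rose in 6 of 6, with a sum of 1838 to 3285 in NT and 121457 to 207048 in the others. For these rises, the share of all genes that rose against NT was 26.2% for Ctrl-F, 24.1% for Cap-F and 25.1% for ODNcap-F. Foxa3, a mucous cell marker, was not well above background in NT. It was kept only through the OVA-exposed groups, so its call is no independent support for a rise. Its Ctrl-F mean stood 3.97-fold above the lowest signal counted as above background. Clca1, another mucous cell marker, was 2.65 and 5.38 in the NT mice, the first below that signal. Of 3 tested basal cell markers 1 rose (Ngfr), and Krt5 was not tested. That is 33.3% in each OVA-exposed group, which lies near the share of all genes that rose. The part of the marker shifts in the junction gene values was not tested.

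**Figure D5:**
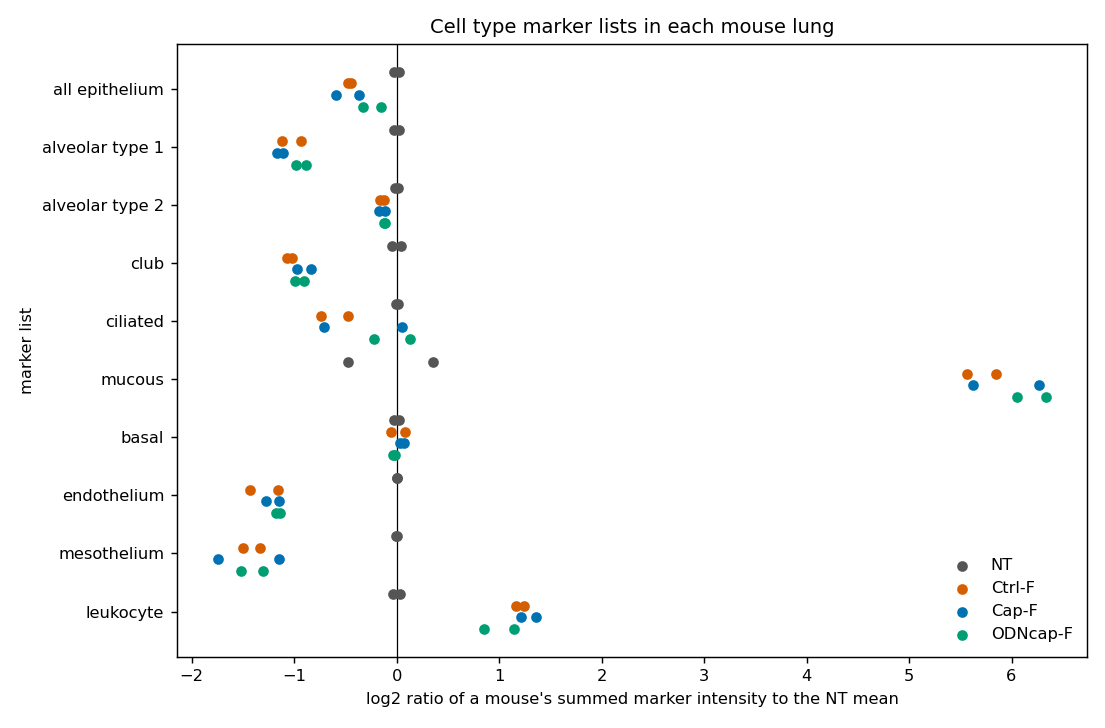
Log2 ratio of the summed intensity of each cell type marker list (y axis) to its NT mean (x axis) in each of the 8 mice, colored by group. Alveolar type 1, club, endothelial and mesothelial sums lie below 0 and mucous and leukocyte sums above 0 in all OVA-exposed mice, while ciliated sums overlap NT in Cap-F and ODNcap-F.

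The genes most like a junction gene were ranked by Pearson correlation over the 8 arrays among 15180 genes measured on every array. They were Cadm1, Bag5 and Tmod1 for Cldn18 (0.998 to 0.999). For Ocln they were Slc8a3, Dennd2c and Grik5 (0.994 to 0.997), and for Cldn4 they were Kif5c, Il17ra and Esd (0.991 to 0.993). Cldn10 was followed by Tmem107, Maats1 and Dnah11 (0.996 to 0.9995), and Cldn7 by Lynx1, Asph and Nek1 (0.988 to 0.992). Correlations were lower for Cldn1, with Adss, 1700010I14Rik and Commd3 (0.977 to 0.983), for Cdh1, with Lyve1, Cask and Tsku (0.959 to 0.975), and for Cdh26, with Ttll1, Ccdc81 and Ly6a (0.949 to 0.957). The 8 arrays share a slide and 4 groups. Cldn2 was left out because it was not measured in NT.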

How the data were processed

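Lung RNA (100 ng per mouse) was labeled with 1 dye and hybridized to 1 array per mouse, and the 8 arrays were scanned together on 1 slide. The authors deposited background-subtracted intensities per spot from Agilent Feature Extraction 11.0 and a table of log2 values, quantile normalized, for 32312 probes. That table differed from log2 values recomputed here for the same probes by at most 0.034.

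Control spots were left out, 792 flagged spot values were set to missing, and intensities were log2 transformed, averaged over spots of a probe and quantile normalized over the 8 arrays. Quantile normalization gives the arrays the same distribution, so that a shift of most genes would be reduced. A probe was kept if both mice of a group had it well above background (37116 of 56605). RefSeq accessions named 32994 probes. The brightest probe stood for a gene. No spot was saturated. Precision is limited by the number of arrays.

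The 4 groups were fitted with limma (3.58.1, R 4.3.3) over all 8 arrays, with Benjamini-Hochberg adjustment over all kept probes. The fit had 4 residual and 1.96 prior degrees of freedom. The local-pooled-error test of the study's methods, rebuilt from its definition, was an alternative. Both were tested on simulated data, where the local-pooled-error test made more false calls than limma. The simulation drew normal noise with each probe's own spread, which limma uses, so it cannot rank the tests on the real arrays. Intervals cover 95%. Where both arrays of a group were not well above background, a fold is given against the lowest signal above background. The p-value beside such a fold rests on the measured values. Promoters came from the RefSeq table (GRCm38.p6).

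Named genes were the 10 junction genes and up to 3 genes per direction and junction list with the largest changes in Ctrl-F against NT. The members and lists were chosen with earlier results of these data known. The genes most like Cldn3 are not reported here.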

Additional observations from a re-analysis of the deposited data

How the results depend on the processing

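The counts of junction genes past the test against NT ranged from 6 to 8 in Ctrl-F, from 6 to 10 in Cap-F and from 5 to 7 in ODNcap-F over all alternatives. When each mouse was left out in turn they ranged from 6 to 8, from 6 to 8 and from 5 to 7, and among the OVA-exposed groups from 0 to 0. With an unadjusted p in place of the adjusted one, 2 genes passed in ODNcap-F against Ctrl-F, 3 in ODNcap-F against Cap-F and 2 in Cap-F against Ctrl-F, and with the local-pooled-error test 0 passed in each of the 3. Of 594 values of single junction genes against NT under an alternative, 541 kept their side of the threshold, 20 lost the call, 33 gained it and 0 changed sign. The calls that changed were those of Cldn1, Cldn7, Cldn10, Cdh1 and Cdh26. Cldn2 could not be tested in the deposited table or with probes above background on all arrays. Deviations of same-numbered mice had correlations from -0.0123 to 0.161, the highest between Cap-F and ODNcap-F. Weak correlations between single differences cannot settle whether the numbers pair mice. With the replicate number as a block 7, 8 and 6 genes passed against NT and 0 elsewhere, which moved no count, although Cldn1 lost and Cdh26 gained the call in Cap-F. The 82 genes of the junction lists gave 6 to 10 higher and 47 to 54 lower in Ctrl-F against NT under the alternatives that kept all of them. Signal over background limits Cldn2 and Cldn4, the dimmest of the 10 probes.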
